A study of Mus musculus with 4 samples.

Results

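Brown adipose tissue of male mice was sequenced in 4 libraries whose names in the labels start with S1 or S2, and gene expression was compared between the 2 libraries of each prefix. The prefix was read from the library name, so no measured value chose the groups, and all 4 libraries of the study entered. S2 held the library labelled WT 1 and KO 2, and S1 held WT 2 and KO 1. KO mice lacked ATF4 in their thermogenic adipocytes and WT mice were their wild-type counterparts. All of them had free access to food, and the diet, at 60% fat, was given for 12 weeks. The labels do not state age, strain, the allele or Cre line behind the deletion, the time of collection or the meaning of the prefix. The libraries are called S1 WT, S1 KO, S2 WT and S2 KO after their labels, and whether each is a separate animal is not stated, so the p-values rest on spread between libraries that may be technical.

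Brown adipose tissue burns lipid and glucose in mitochondria to make heat. Its cells carry a circadian clock, a loop of transcription factors in which the BMAL1-CLOCK pair switches on its own repressors, so that the genes of the loop rise and fall over the day in opposite phases. The tissue also holds blood vessels, macrophages, lymphocytes and nerves, and dissection or warming can switch on early stress genes within minutes.

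Of 52022 annotated genes with a summed count column, 15643 were tested. Total estimated counts were 25985367 in S1 KO, the shallowest library, and 34813870 in S1 WT, the deepest. The 13 protein genes of mitochondrial DNA took 38.4% of counts in S1 KO and between 32.2 and 33.3% in the other libraries. Ucp1, the uncoupling protein that defines brown fat, was at 6295 and 7024 CPM (counts scaled to a library total of 1000000) in S1 WT and S1 KO and at 5563 and 5989 in S2 WT and S2 KO. It was not called (log2 fold change -0.20, SE 0.25, adjusted p = 0.697). Atf4, the targeted gene, was at 107 CPM in S1 WT, 29.2 in S2 WT, 24.97 in S1 KO and 24.5 in S2 KO. Its level therefore does not set the library labelled WT 1 apart from the KO libraries. The 18 skeletal muscle markers summed to 60.2 and 42 CPM in S1 WT and S2 WT and to 3361 and 3005 in S1 KO and S2 KO. Whether this difference is tied to the deletion was not tested.

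With genotype as a covariate, edgeR's quasi-likelihood test called 491 of the 15643 genes at an adjusted p under 0.05, which is 3.14%. Of these, 248 were higher in S2 (1.59% of genes tested) and 243 were lower (1.55%), and 3105 genes had an unadjusted p under 0.05. All log2 fold changes are S2 minus S1. Among the called genes 466 had both S2 libraries on the same side of both S1 libraries, and 259 differed by at least 2-fold. Both S2 libraries were above both S1 libraries for 27.3% of all genes and below them for 25.9%. The calls rest on the genotype term. The fit with it has 1 residual degree of freedom and draws most of its error from variation pooled over genes. Without the term 1 gene was called, Dbp, and with any library left out 0 or 1 was called, so the sizes within each genotype are given beside the calls below.

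**Figure D1:**
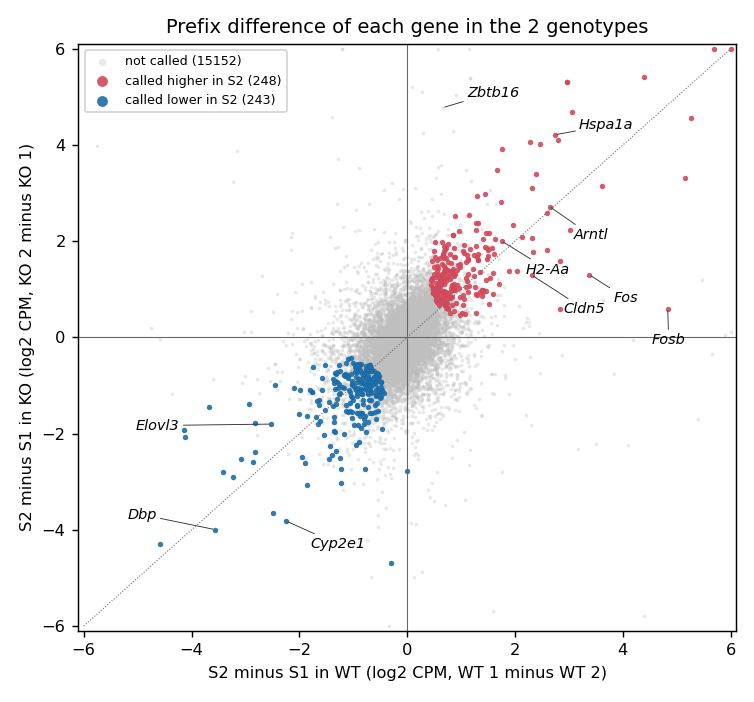
Each point is 1 of 15643 genes, with its S2 minus S1 difference in log2 CPM between the WT libraries on the x axis and between the KO libraries on the y axis, and values beyond the axes are drawn at the edge. Genes called higher (248) lie at the upper right and genes called lower (243) at the lower left, while Fosb differed mainly in WT and Zbtb16, which was not called, mainly in KO.

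Across all genes tested the S2 minus S1 differences in WT and in KO had a Pearson r of 0.38 and a Spearman rho of 0.45. These are descriptions across genes, which are not independent replicates, and the 2 differences share no library. A difference of at least 2-fold was seen for 821 genes in WT and for 1648 in KO. Among the called genes 76 were at least 2-fold higher in both genotypes and 68 at least 2-fold lower in both.

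Both arms of the clock loop differed between the prefixes, in opposite directions, and the clock gene Dbp had the smallest p of all genes tested. Of the 12 genes of the negative arm, which the BMAL1-CLOCK pair switches on, 6 were lower in S2 and 0 higher, with a median log2 fold change of -0.95 (-1.18 within WT and -0.76 within KO). Of the 6 genes of the positive arm and those that share its phase, 4 were higher and 0 lower, with a median of 1.42 (1.32 within WT and 1.47 within KO). The median over all genes tested was -0.01. The labels do not say at what time each tissue was collected, and the part of time in these differences was not tested.

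Dbp encodes a PAR-domain factor that carries the clock's rhythm to metabolic genes (ENSMUSG00000059824, chromosome 7, 45705088 to 45710203, plus strand, GRCm38). It was at 45.4 and 51.8 CPM in S1 WT and S1 KO and at 3.76 and 3.19 in S2 WT and S2 KO. The prefixes were far apart and the genotypes nearly level, and Dbp was 13.9-fold lower in S2 (log2 fold change -3.80, SE 0.18, adjusted p = 1.5e-05). Per3, a period protein, was at 62.7 and 63.7 CPM in S1 WT and S1 KO and at 21.6 and 15.6 in S2 WT and S2 KO (-1.78, SE 0.17, adjusted p = 0.00141). Nr1d1, the repressor REV-ERB alpha, was at 135 and 145 CPM in S1 and at 31.6 and 69.5 in S2 (-1.58, SE 0.23). Its relative Nr1d2 was at 60 and 51.1 CPM in S1 and at 17.8 and 33.3 in S2 (-1.18, SE 0.24). In both REV-ERB genes S2 WT was the lowest library, with S2 KO between it and S1. Tef, a PAR-domain factor like Dbp, was at 209 and 201 CPM in S1 and at 88.1 and 90.4 in S2 (-1.20, SE 0.16). Bhlhe41, a repressor of BMAL1-CLOCK, was at 13.4 and 12.3 CPM in S1 and at 6.15 and 7.20 in S2 (-0.95, SE 0.18).

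The other 6 genes of that arm did not pass. Cry2 (-0.65, adjusted p = 0.0508) and Ciart (-0.94, adjusted p = 0.0747) had both S2 libraries under both S1 libraries, as did Hlf (-0.21) and Bhlhe40 (-0.29). The period genes Per1 and Per2 overlapped: Per2 was at 37.2 CPM in S1 WT and 15.5 in S2 WT but at 23.5 in S1 KO and 24.9 in S2 KO, and Per1 was at 77.1 in S1 WT, 50.4 in S2 WT, 40.7 in S1 KO and 39.9 in S2 KO. Both had their highest value in S1 WT, and between the KO libraries the log2 difference was 0.08 for Per2 and -0.03 for Per1.

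In the opposite direction, Arntl, which encodes BMAL1 (ENSMUSG00000055116, chromosome 7, 113207465 to 113314126, plus strand), was at 3.35 and 3.48 CPM in S1 WT and S1 KO and at 21.2 and 23.3 in S2 WT and S2 KO. That is 6.50-fold higher in S2 (2.70, SE 0.17, adjusted p = 7.92e-05), with 2.64 within WT and 2.72 within KO. Npas2, a partner that can replace CLOCK, was near the limit of detection in S1 at 0.136 and 0.469 CPM and at 1.37 and 1.54 in S2 (2.39, SE 0.51, adjusted p = 0.036). Cry1, a cryptochrome repressor whose peak follows that of the other repressors, was at 7 and 4.85 CPM in S1 and at 17.2 and 15.5 in S2 (1.48, SE 0.18). Nfil3, which represses the targets of DBP and TEF, was at 21.3 and 16.4 CPM in S1 and at 54.1 and 42.2 in S2 (1.35, SE 0.15). Clock itself had a log2 fold change of 0.63 (adjusted p = 0.0603) with both S2 libraries higher, and Rora was level at 10.5 and 9.61 CPM in S1 and 10.2 and 10.9 in S2. In each of the 4 called genes the difference in WT and in KO had the same sign, and Arntl, Cry1, Nfil3, Dbp, Per3, Nr1d1 and Tef were called in all 12 alternative fits that kept 4 libraries and the genotype term.

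**Figure D2:**
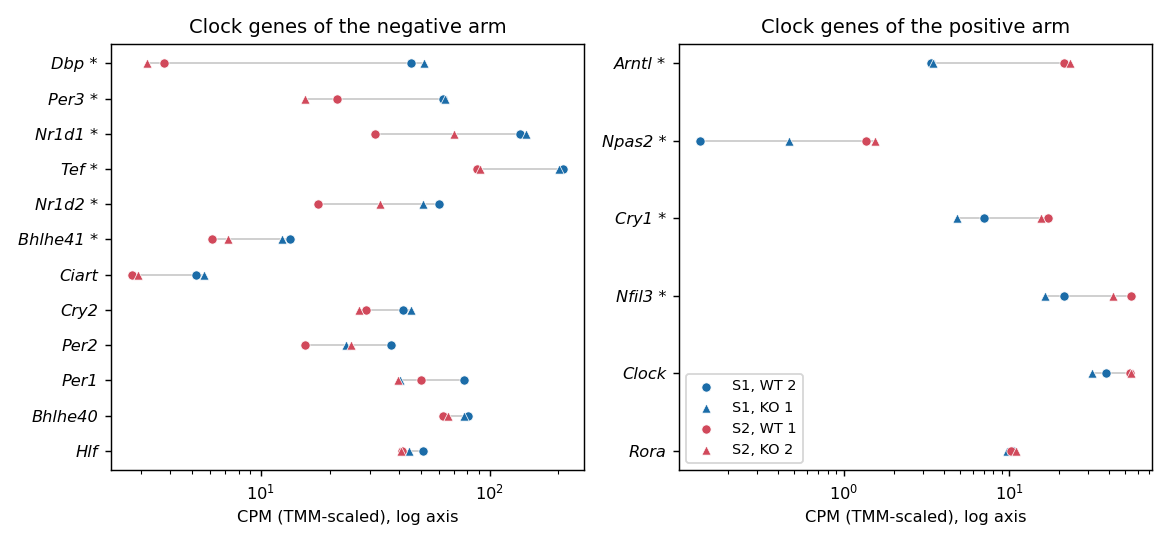
CPM of the 12 genes of the negative arm and the 6 of the positive arm in each library (log axis, circles WT, triangles KO, blue S1, red S2, an asterisk marks a called gene). The 2 S1 libraries lie together and the 2 S2 libraries lie together for Dbp, Per3, Tef and Arntl, while Per1, Per2 and Rora overlap.

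Promoters of 4 called members are shown with a clock element that was found in them. BMAL1-CLOCK binds the E-box CACGTG, and ROR and REV-ERB factors bind the core TAGGTCA, with opposite effects. Sequences are RefSeq promoters of GRCm38.p6, read 5′ to 3′ on the strand of the gene, with the element in capitals. The stretch of Tef (chr15:81802506-81802591, plus strand) has its element 127 bases before the start site, and that of Bhlhe41 (chr6:145865528-145865613, minus strand) 153 bases before it. In Nfil3 (chr13:52981040-52981091, minus strand) the element is on the opposite strand 12 bases before the start, and in Arntl (chr7:113207533-113207555, plus strand) 31 bases after it.
Tef: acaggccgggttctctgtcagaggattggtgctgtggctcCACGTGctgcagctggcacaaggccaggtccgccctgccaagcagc
Bhlhe41: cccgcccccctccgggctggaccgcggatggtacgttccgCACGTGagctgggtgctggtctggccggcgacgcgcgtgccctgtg
Nfil3: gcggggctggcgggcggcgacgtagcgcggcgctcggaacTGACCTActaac
Arntl: gcagaaagTAGGTCAgggacgga

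In windows from 250 bases before to 50 after the start site, searched on both strands, CACGTG was in 4 of the 10 matched genes of the negative arm (Bhlhe41, Ciart, Per1 and Tef), in 1 of the 6 of the positive arm (Cry1, which was called higher) and in 11.3% of the 11417 tested genes matched. TAGGTCA was in 2 of the 6 genes of the positive arm (Arntl and Nfil3) and in 2.29% of tested genes. It was in 5.71% of the 175 matched genes called higher in S2 and in 1.86% of the 161 called lower. CACGTG was in 8.57% of the genes called higher and 11.8% of those called lower. The D-box TTATGTAA, which DBP and TEF bind, was in the Per3 window and in 0.736% of tested genes. The windows of Dbp and Nr1d1 held none of these letters. A match is a description of the letters in the window.

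Genes tied to clock output or to glucocorticoids, the steroid hormones that also follow the day, differed in fewer members. Of 18 tested output genes 5 were higher and 0 lower, and of 16 glucocorticoid-responsive genes 3 were higher and 0 lower, with list medians of 0.31 and 0.10. Cdkn1a, the cell cycle inhibitor p21, was at 44.7 and 38.6 CPM in S1 WT and S1 KO and at 108 and 144 in S2 WT and S2 KO (1.59, SE 0.18, adjusted p = 0.00266). Pdk4, a kinase that closes the entry of pyruvate into the citric acid cycle, was at 887 and 872 CPM in S1 and at 1566 and 2545 in S2 (1.18, SE 0.25). Cdkn1a and Pdk4 were counted in both lists, so the 2 counts are not separate, and both genes also belong to other lists. Hspa1b of the output list belongs to the heat shock list as well. Zbtb16, which responds strongly to glucocorticoids, was at 7.19, 4.49 and 11.4 CPM in S1 WT, S1 KO and S2 WT and at 125 in S2 KO. Its difference of 4.78 in KO and 0.67 in WT did not pass (2.70, SE 0.76, adjusted p = 0.086). Fkbp5, a classical target of the same receptor named after its values were seen, was also highest in S2 KO, at 16.5 CPM against 8.11, 4.49 and 3.19 in S1 WT, S1 KO and S2 WT. The glucocorticoid list as a whole was mixed, with log2 fold changes from -1.55 to 2.70. In it 5 genes had both S2 libraries above both S1 libraries, 4 had both below and 7 overlapped. Over all genes tested 27.3% were above and 25.9% below.

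Heat shock genes, chaperones that HSF1 switches on when proteins unfold, were higher in S2. The list is mostly cytosolic, but it also holds Hspd1 and Hspe1 of mitochondria and Serpinh1 of the endoplasmic reticulum. Of 23 tested, 13 were higher and 0 lower, and 20 had both S2 libraries above both S1 libraries. Their median log2 fold change was 0.81, with 0.63 within WT and 1.13 within KO. The list summed to 4521 and 2944 CPM in S1 WT and S1 KO and to 6281 and 5962 in S2 WT and S2 KO, so S1 KO was the lowest library.

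Hspa1a, an inducible HSP70 (chromosome 17, 34969190 to 34972156, minus strand), was at 22.3 and 1.84 CPM in S1 WT and S1 KO and at 150 and 35.2 in S2 WT and S2 KO. It was 10.2-fold higher in S2 (3.35, SE 0.29, adjusted p = 0.000895), with 2.74 within WT and 4.21 within KO. Hspa1b, its near-identical neighbour, had the same order at 28.4, 2.50, 158 and 41.7 CPM, and reads may be split between them with uncertainty. Hsph1, an exchange factor that works with HSP70, was at 64.2 and 18 CPM in S1 and at 174 and 142 in S2 (2.19, SE 0.30, adjusted p = 0.00544). The co-chaperone Dnajb1 was at 46.8 and 17.5 CPM in S1 and at 97.8 and 59.4 in S2 (1.40, SE 0.19). Hspb1, a small heat shock protein, was at 104 and 72.7 CPM in S1 and at 187 and 182 in S2 (1.09, SE 0.17). Chordc1, a cofactor of HSP90, was at 22.1 and 16.3 CPM in S1 and at 40.3 and 40.9 in S2 (1.09, SE 0.17). In every one of these genes S1 KO was the lowest library and the difference within KO exceeded that within WT. Mitochondrial chaperones, which share Hspd1 and Hspe1 with the heat shock list, had 0 of 19 called and a median of 0.30. Genes of endoplasmic reticulum stress had 0 of 20 called and a median of 0.19.

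HSF1 binds inverted repeats of GAA, searched here on both strands as GAA, TTC and GAA with 2 bases of any kind between them. The element was in 4 of the 19 matched heat shock genes (Chordc1, Hspd1, Hspe1 and Hsph1), of which Chordc1 and Hsph1 were called, and in 0.622% of tested genes. It was in 1.71% of matched genes called higher and in 0 of 161 called lower. The windows of Hspa1a and Hspa1b did not hold these letters. The 2 called members are shown at chr5:149636280-149636308 (Hsph1, minus strand, element on the opposite strand 16 bases after the start) and chr9:18292255-18292283 (Chordc1, plus strand, element 4 bases before the start).
Hsph1: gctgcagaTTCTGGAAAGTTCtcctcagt
Chordc1: tgcaaccgGAACGTTCGGGAAaattcctg

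Immediate early genes, transcription factors that a stimulus induces within minutes, had 11 of 24 members higher and 0 lower, with a median of 0.76. The median was 0.89 within WT and 0.55 within KO. Fos was at 4.85 and 0.977 CPM in S1 WT and S1 KO, at 51 in S2 WT and at 2.50 in S2 KO. Fosb was at 1.17, 0.274, 35.1 and 0.446 CPM in the same order. In both the S2 KO library lay below S1 WT, so the prefixes overlapped although the fit called them (Fos 2.81, SE 0.37, and Fosb 4.35, SE 0.58). Their difference was larger within WT (3.38 for Fos and 4.83 for Fosb) than within KO (1.30 and 0.59). Nr4a1, a nuclear receptor without a known ligand, was at 43.7, 5.12, 126 and 23.1 CPM, and Jun at 98.4, 25.2, 180 and 54.6. For these 2 the difference was larger within KO (2.16 for Nr4a1 and 1.11 for Jun) than within WT (1.52 and 0.87). All 4 genes were higher in WT than in KO within each prefix. Fosl2, a FOS relative, did not overlap, at 35.2 and 22 CPM in S1 and at 68.1 and 44.8 in S2 (0.99, SE 0.15). Only 7 of the 24 members had both S2 libraries above both S1 libraries, against 20 of 23 heat shock genes and 27.3% of all genes tested. The labels do not give the interval between death and freezing or any handling, and its part was not tested.

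**Figure D3:**
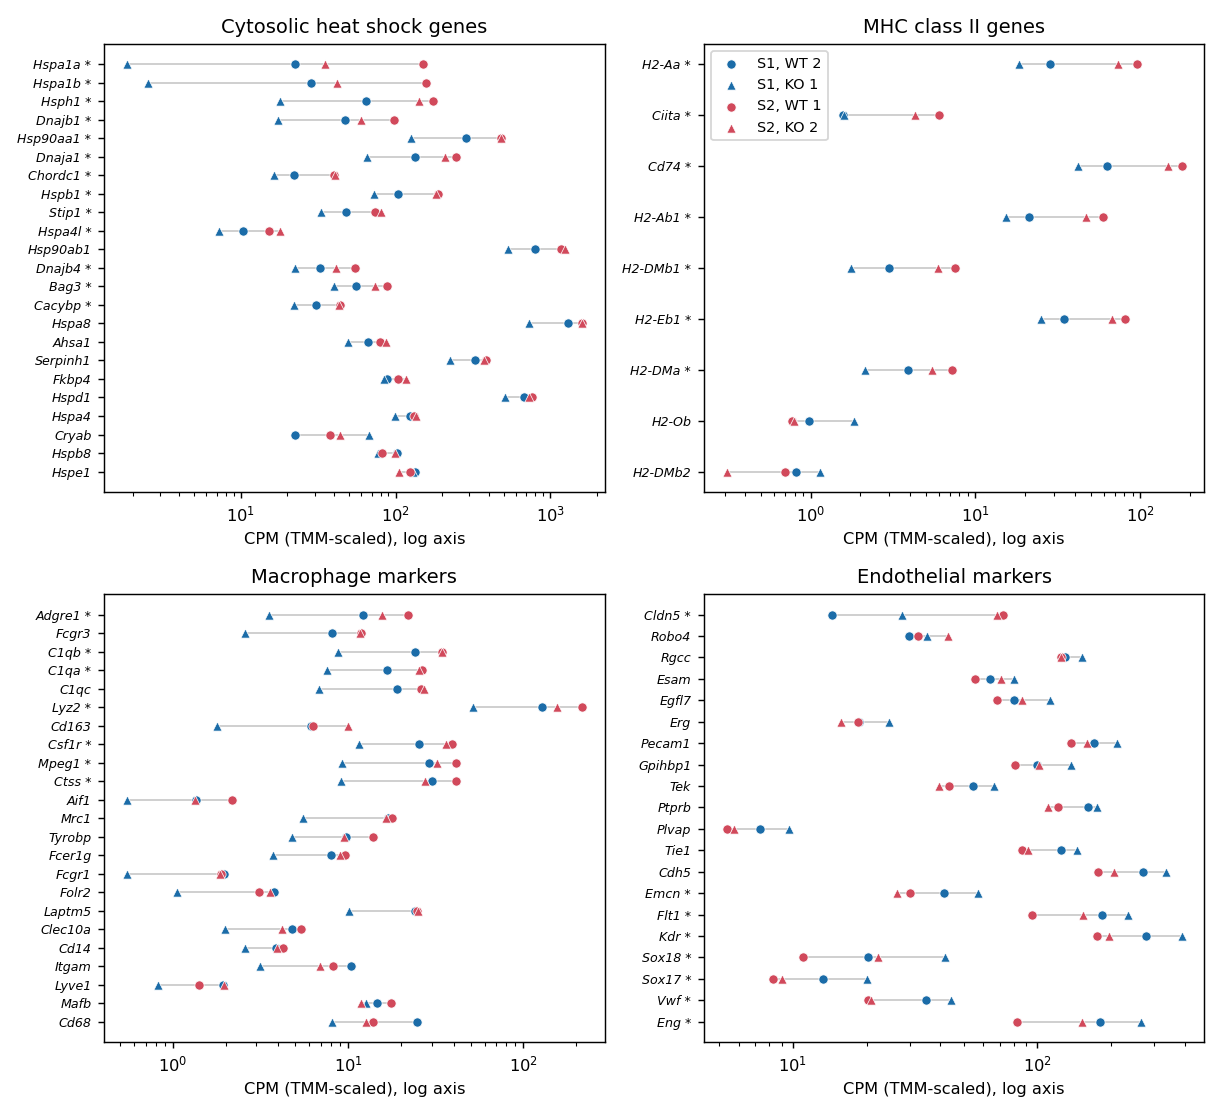
CPM in each library (log axis, circles WT, triangles KO, blue S1, red S2, an asterisk marks a called gene) for heat shock genes, MHC class II genes, macrophage markers and endothelial markers. S1 KO lies lowest for most heat shock genes and macrophage markers, the 7 called MHC class II genes separate by prefix, and 14 of the 20 endothelial markers have both S2 libraries below both S1 libraries, with Cldn5 the other way.

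Genes of antigen presentation by MHC class II, which load peptides for display to helper T cells, were higher in S2. Of the 9 tested 7 were higher and 0 lower, with a median of 1.53 (1.32 within WT and 1.43 within KO). H2-Aa, the alpha chain of the I-A molecule (chromosome 17, 34282744 to 34287823, minus strand), was at 28.4 and 18.4 CPM in S1 WT and S1 KO and at 95.8 and 73.8 in S2 WT and S2 KO (1.88, SE 0.16, adjusted p = 0.000848). Its partner H2-Ab1 was at 21.2 and 15.3 CPM in S1 and at 59.2 and 47.2 in S2 (1.55, SE 0.15). Cd74, the invariant chain that guides these molecules, was at 63.3 and 42.2 CPM in S1 and at 179 and 148 in S2 (1.65, SE 0.16). H2-Eb1 had a log2 fold change of 1.33 (SE 0.15), and the peptide exchangers H2-DMb1 and H2-DMa had 1.53 (SE 0.25) and 1.10 (SE 0.25). Ciita, the factor that switches the class II genes on, was at 1.58 and 1.60 CPM in S1 and at 5.99 and 4.28 in S2 (1.68, SE 0.29). The 7 genes separated by prefix with differences of like size in both genotypes. The 2 other members, H2-Ob and H2-DMb2, named after their values were seen, had -0.79 (adjusted p = 0.316) and -0.95 (adjusted p = 0.331) at levels under 2 CPM.

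Macrophage markers were higher in S2 mainly through the KO libraries. Of 23 tested 7 were higher and 0 lower, with a median of 0.77, which was 0.26 within WT and 1.58 within KO. The markers summed to 426 and 168 CPM in S1 WT and S1 KO and to 588 and 484 in S2 WT and S2 KO. Adgre1, which encodes F4/80, was at 12.2 and 3.52 CPM in S1 and at 22 and 15.6 in S2 (1.43, SE 0.26, adjusted p = 0.0201). Lyz2, a lysozyme, was at 128 and 51.9 CPM in S1 and at 216 and 155 in S2 (1.16, SE 0.20). C1qa, a chain of complement C1q, was at 16.7 and 7.58 CPM in S1 and at 26.5 and 25.5 in S2 (1.18, SE 0.23). Over the same 12 alternative fits 1 to 14 markers were called higher. S1 KO was the lowest library for Adgre1, Lyz2 and C1qa. Both S2 libraries were above both S1 libraries for 12 of the 23 markers, against 27.3% of all genes tested. In bulk tissue fewer cells of a type and less RNA per cell cannot be told apart. Of the 17 genes of lipid-laden macrophages, Clec7a was higher (1.74, SE 0.33) and Spp1, which encodes osteopontin, was lower, at 14.7 and 3.01 CPM in S1 WT and S1 KO and at 2.61 and 1.47 in S2 WT and S2 KO (-1.86, SE 0.33). Fcgr2b, the inhibitory receptor for immunoglobulin G, was at 3.35 and 1.99 CPM in S1 and at 8.19 and 9.63 in S2 (1.75, SE 0.27).

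Lymphocyte genes did not follow the class II genes. Of 21 B cell markers 12 were tested, with a median of -1.30. Both S2 libraries were below both S1 libraries for 9 of the 12, against 25.9% of all genes tested. Ighm, the immunoglobulin mu chain, went the other way, at 20.8 and 16.4 CPM in S1 and at 45.8 and 40.9 in S2 (1.23, SE 0.15, adjusted p = 0.00387). Except for Ighm, which raised the summed level of the list to 55.6 and 47.1 CPM in S2 from 33 and 37.4 in S1, the B cell genes were at a few CPM or less. Of 25 T cell markers 11 were tested, 0 were called, and 2 had an unadjusted p under 0.05. They summed to 18.3 and 20 CPM in S1 and to 14.9 and 14.2 in S2.

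The list of interferon-stimulated genes, which respond to antiviral cytokines, held 1 called gene. Of the 22 tested 1 was lower and 0 higher. Both S2 libraries were below both S1 libraries for 17 of them, against 25.9% of all genes tested. The median was -0.36 (-0.45 within WT and -0.27 within KO). The called gene was Rsad2, the antiviral enzyme viperin, at 20.4 and 25 CPM in S1 WT and S1 KO and at 11.5 and 14.9 in S2 WT and S2 KO (-0.79, SE 0.15, adjusted p = 0.0228). Gbp2 and Gbp3 of the list belong to the guanylate binding proteins, a family chosen after the calls were seen. Of its members outside the list, Gbp4, Gbp5, Gbp7 and Gbp9 were called lower, and no member was called higher. Tap1, which carries peptides to MHC class I and responds to interferon, was the 1 called member of the 15 class I genes, at 17.6 and 20.7 CPM in S1 and at 11.5 and 12.7 in S2 (-0.66, SE 0.15). The class I and class II lists thus had medians of opposite sign, -0.30 and 1.53. The interferon-stimulated response element, searched on both strands as GAAA and GAAA with 2 bases of any kind between them, was in the windows of 9 of 15 matched genes of the list (Bst2, Gbp2, Gbp3, Ifit1, Ifit3, Isg15, Oas1a, Rsad2 and Stat2) and in 3.82% of tested genes. It was in 5.14% of genes called higher and 4.97% of those called lower. The stretch of the called member is at chr12:26456523-26456612 on the minus strand, with the element on the opposite strand 120 bases before the start.
Rsad2: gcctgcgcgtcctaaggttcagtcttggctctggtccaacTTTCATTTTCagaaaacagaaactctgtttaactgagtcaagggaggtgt

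Among secreted immune factors 2 of 18 tested cytokine and chemokine genes were lower and 0 higher. Cxcl12, a chemokine that holds leukocytes in tissues, was at 213 and 356 CPM in S1 WT and S1 KO and at 103 and 139 in S2 WT and S2 KO (-1.20, SE 0.17, adjusted p = 0.00724). Il1rn, the antagonist of the interleukin 1 receptor, was at 5.69 and 5.04 CPM in S1 and at 2.23 and 1.89 in S2 (-1.38, SE 0.27). Both genes were lower by like amounts in the 2 genotypes. Cfd, the adipocyte protease complement factor D, was at 152 and 225 CPM in S1 and at 101 and 76.6 in S2 (-1.07, SE 0.22).

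Endothelial markers were called lower in S2 more often than higher. Of the 20 tested 7 were lower, 1 was higher and 12 did not pass. Both S2 libraries were below both S1 libraries for 14 of them, against 25.9% of all genes tested. The median was -0.57 (-0.43 within WT and -0.67 within KO). The list summed to 1977 and 2567 CPM in S1 WT and S1 KO and to 1447 and 1702 in S2 WT and S2 KO. Eng, a coreceptor for BMP ligands, was at 180 and 265 CPM in S1 and at 82.7 and 152 in S2 (-0.96, SE 0.17, adjusted p = 0.0167). Vwf, the clotting factor stored in endothelium, was at 35.2 and 44.1 CPM in S1 and at 20.4 and 20.9 in S2 (-0.93, SE 0.16). Flt1, a receptor for VEGF, was at 183 and 236 CPM in S1 and at 95.3 and 153 in S2 (-0.78, SE 0.17). The VEGF receptor Kdr had -0.83 (SE 0.18), and the lymphatic VEGF receptor Flt4 had -0.82 (SE 0.16). Gja4, the connexin of arterial endothelium, was at 6.04 and 9.69 CPM in S1 and at 2.33 and 2.47 in S2 (-1.68, SE 0.25). Cldn5, the tight junction protein of endothelium, ran against them, at 14.5 and 27.9 CPM in S1 WT and S1 KO and at 72.4 and 68.4 in S2 WT and S2 KO (1.80, SE 0.23, adjusted p = 0.00389). Myh11, the myosin of smooth muscle, was the 1 called gene of 14 mural markers (-0.83, SE 0.18).

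**Figure D4:**
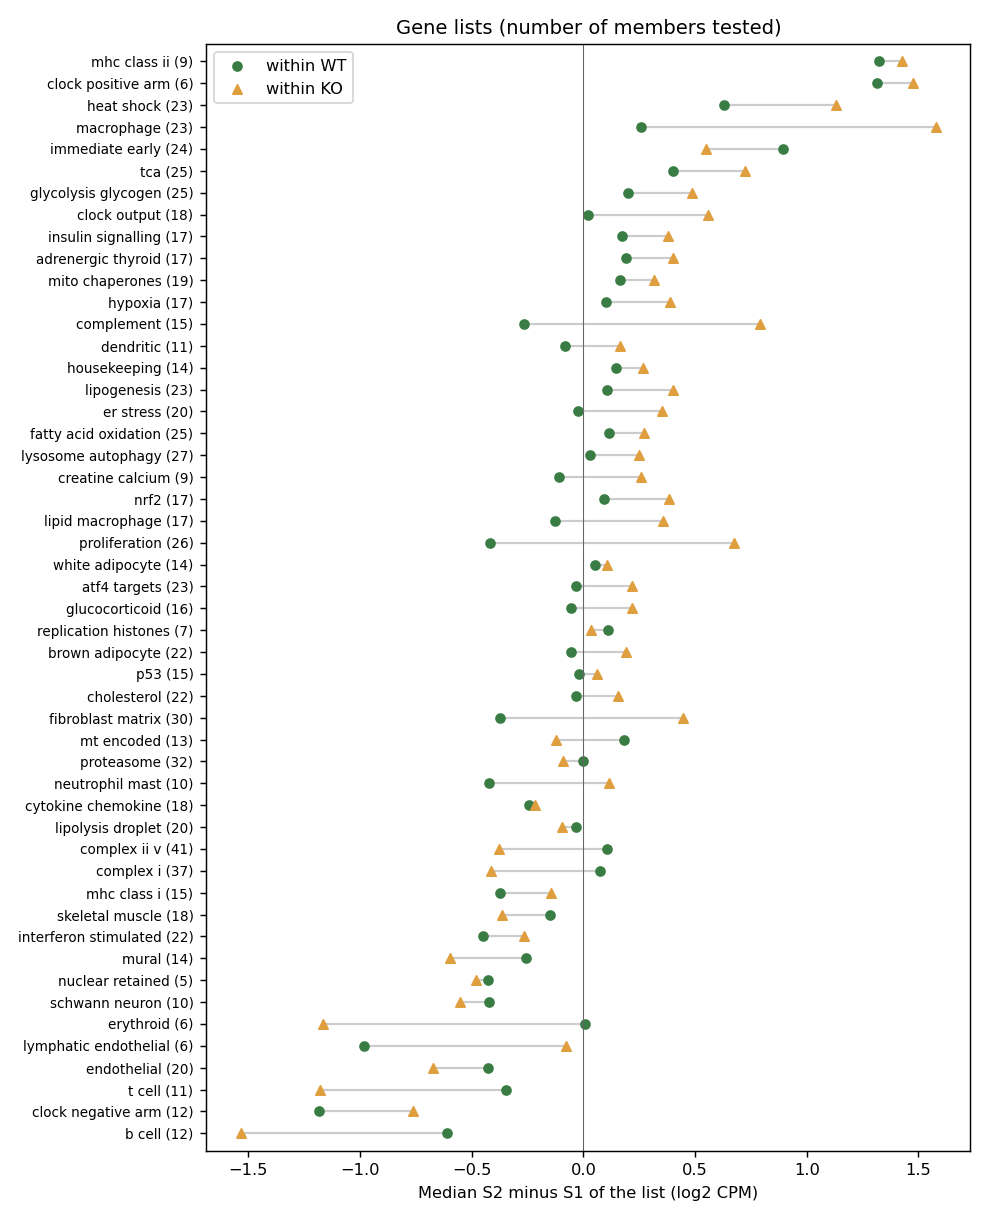
Median S2 minus S1 difference in log2 CPM of each gene list with at least 5 members tested, within WT (circles) and within KO (triangles), with the number tested in brackets. The 2 genotypes lie close for the positive clock arm (1.32 in WT and 1.47 in KO) and MHC class II (1.32 and 1.43). They lie further apart for the negative clock arm (-1.18 and -0.76) and far apart for macrophage markers (0.26 and 1.58).

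Most members of the metabolic lists were not called. Over all genes tested 1.59% were called higher and 1.55% lower. In fatty acid synthesis 3 of 23 genes were higher and 0 lower. Fasn, fatty acid synthase, was at 5080 and 2311 CPM in S1 WT and S1 KO and at 9370 and 13378 in S2 WT and S2 KO (1.71, SE 0.39, adjusted p = 0.0445). Scd1, the delta-9 desaturase, was at 7575 and 4531 CPM in S1 and at 18849 and 13824 in S2 (1.46, SE 0.28). Acaca, which makes the malonyl-CoA that Fasn uses, was at 769 and 360 CPM in S1 and at 1394 and 1583 in S2 (1.5, SE 0.30). All 3 had both S2 libraries higher and S1 KO lowest. Over the 12 alternative fits Scd1 was called in 12, Acaca in 9 and Fasn in 8. Elovl3, an elongase of brown fat that is induced by cold, went the other way, at 61.1 and 81.5 CPM in S1 and at 10.5 and 23.3 in S2 (-2.16, SE 0.20, adjusted p = 0.00109). Of the 22 brown adipocyte genes 1 more was lower, the fatty acid importer Slc27a2 (-0.71, SE 0.15), and 1 was higher, Ppara, a receptor that switches on fatty acid oxidation (1.42, SE 0.18), at 61.1 and 47.6 CPM in S1 and at 133 and 157 in S2.

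The 25 fatty acid oxidation genes held 3 lower and 0 higher, with a median of 0.18. Both S2 libraries were above both S1 libraries for 14 and below for 4. Over all genes tested these shares were 27.3% above and 25.9% below. Acot1, a cytosolic acyl-CoA thioesterase, was at 4.25 and 7.58 CPM in S1 and at 0.542 and 2.16 in S2 (-2.30, SE 0.34), and its mitochondrial paralog Acot2, whose sequence is close, had -0.76 (SE 0.16). Genes of pyruvate oxidation and the citric acid cycle lay above by small amounts: 24 of 25 had both S2 libraries above both S1 libraries and the median was 0.55 (0.40 within WT and 0.73 within KO), with 3 higher and 0 lower. The 3 were Suclg2, a subunit of succinate-CoA ligase (0.73, SE 0.17), and the kinases Pdk1 (0.74, SE 0.17) and Pdk4. These kinases close the entry of pyruvate into the cycle, so Suclg2 was the only called enzyme of the cycle itself. The subunits of complex I had 0 of 37 called with -0.17 as median, 0.08 within WT and -0.42 within KO. Gbe1, the branching enzyme of glycogen synthesis, was the 1 called gene of 25 for glycolysis and glycogen (1.07, SE 0.20).

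White adipocyte genes were split, with 3 of 14 higher and 3 lower. Npr3, the clearance receptor for natriuretic peptides, was at 186 and 71.2 CPM in S1 and at 383 and 270 in S2 (1.48, SE 0.22, adjusted p = 0.00843). Lep, the leptin gene, was at 181 and 42.7 CPM in S1 WT and S1 KO and at 302 and 111 in S2 WT and S2 KO (1.05, SE 0.19). The prefixes overlapped for Lep, since S1 WT was above S2 KO, and the difference was 0.73 within WT and 1.37 within KO. Retn, which encodes resistin, was at 21.3 and 12.9 CPM in S1 and at 9.24 and 6.24 in S2 (-1.13, SE 0.16). Of 9 genes of creatine and calcium cycling 2 were lower and 0 higher, the phosphatase Alpl (-1.33, SE 0.16) and the creatine kinase Ckb (-0.71, SE 0.17).

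The genes with the greatest differences also included members of no common pathway. Among those higher in S2, Osgin1 and Gsta3, both targets of the oxidative stress factor NRF2, were at 1.99 and 2.23 CPM and at 1.96 and 2.58 CPM in S1 WT and S1 KO, and at 12.4 and 8.02 and at 10.2 and 8.95 in S2 WT and S2 KO. They were the 2 called genes of the 17 NRF2 targets tested. Car12, a carbonic anhydrase at the cell surface, was at 1.77 and 0.625 CPM in S1 and at 8.83 and 11.4 in S2 (3.08, SE 0.37). Slc5a3, the importer of the osmolyte myo-inositol, was at 25.9 and 7.58 CPM in S1 and at 63.7 and 58.6 in S2 (2.08, SE 0.31). Slc15a2, a peptide transporter, had 2.69 (SE 0.31), and the developmental factors Eya2 and Sox9 had 2.25 (SE 0.28) and 1.86 (SE 0.36). Among those lower, Cyp2e1, a cytochrome P450 that oxidises small molecules, was at 15.3 and 23.1 CPM in S1 and at 3.19 and 1.58 in S2 (-3.00, SE 0.32). Alox12, an arachidonate lipoxygenase, was at 7.81 and 11.1 CPM in S1 and at 2.10 and 1.27 in S2 (-2.47, SE 0.30). Slco4a1, an organic anion transporter, was at 12.3 and 24 CPM in S1 and at 4.49 and 4.94 in S2 (-1.87, SE 0.22). The falls also included Papln (-1.76, SE 0.18), Olfr1396 (-2.26, SE 0.25), Fam131c (-1.63, SE 0.31) and Gipc3 (-1.59, SE 0.30), and the rises Efcab8 (1.86, SE 0.36). Cish, a feedback inhibitor of cytokine receptors, was lower mainly in KO, at 73.8 and 53.7 CPM in S1 WT and S1 KO and at 42.9 and 8.05 in S2 WT and S2 KO (-1.71, SE 0.36).

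Of the 491 called genes 103 were in at least 1 of the 54 lists and 388 were in none. Called members were found in 33 lists. Lists with 0 called of at least 20 tested were, besides those of respiration and of endoplasmic reticulum stress, ATF4 targets (23 tested, median 0.10), cholesterol genes (22, median 0.03), lipolysis and droplet genes (20, median -0.10), the proteasome (32, median -0.06) and proliferation genes (26, median 0.12).

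Several features of the libraries moved with the prefix or with S1 KO, and their part in the calls was not tested. The 5 tested RNAs that stay in the nucleus, led by Neat1 at 1091 and 2110 CPM in S1 WT and S1 KO and 713 and 993 in S2 WT and S2 KO, were all lower in both S2 libraries, with 0 called and a median of -0.44. Red blood cell genes summed to 2028 CPM in S1 KO and to between 908 and 1131 in the other libraries, with 0 of 6 called. Pseudogenes took 3.06% of counts in S1 KO and between 1.89 and 2.25% in the others. Among 13724 protein-coding genes the difference followed GC content, with a rank correlation across genes of -0.14 in WT and -0.20 in KO. It followed transcript length in KO, with 0.20, and not in WT, with -0.0037. For genes under 1000 bases the median difference was -0.31 in KO and -0.01 in WT.

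**Figure D5:**
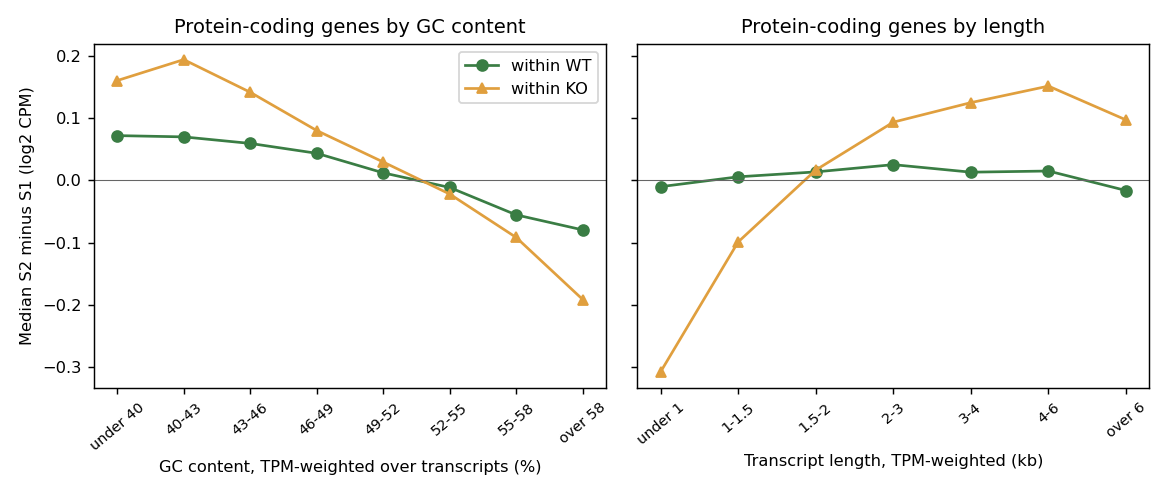
Median S2 minus S1 difference in log2 CPM of protein-coding genes in bins of GC content (left) and of transcript length (right), within WT (circles) and within KO (triangles). The median is lower at high GC content in both genotypes, and it follows length between the KO libraries, from -0.31 for the shortest genes.

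A group of calls could depend on how reads were shared out between similar transcripts. Of the called genes 11 had no count in both libraries of 1 prefix, 9 of them in S1 and 2 in S2. In 10 of these 11 at least 84.9% of the 31-base words of the main transcript also occur in transcripts of other genes. Gemin4, part of the complex that assembles splicing particles, had 0 counts in both S1 libraries and 103 and 145 in S2 WT and S2 KO, and 94.7% of its words lie in a transcript of the overlapping gene Glod4. The 10 genes are therefore uncertain. The remaining gene, Gm47204, shared 0% of its words and had 23 and 10 counts in S1 and 0 in both S2 libraries. No fold is given for the 11.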

How the data were processed

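RNA was extracted with TRIzol, purified on a column and made into stranded mRNA libraries, per the labels' protocols. Per the submitters' processing notes, kallisto 0.45.0 and build mm10 were used. Per the file headers, the authors deposited an estimated count and a TPM value (an abundance per length that sums to 1000000) per transcript, with 141450 transcripts in each library. kallisto shares reads between similar transcripts, so genes with close copies are uncertain.

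Transcripts were assigned to genes of GENCODE vM21 (GRCm38), and 97.7% were matched. The unmatched ones held 0.992 to 1.05% of counts and were left out. Gene counts are sums of the estimated counts, rounded. The main test was edgeR 4.0.16 (R 4.3.3, quasi-likelihood, TMM, filterByExpr with minimum count 10 and total 15) with genotype and prefix as terms and Benjamini-Hochberg adjustment over all 15643 genes. CPM used TMM-scaled sizes, and differences within a genotype are log2 CPM with a prior count of 2. The script was tested on simulated data. GC content and length are means over transcripts weighted by TPM. Promoters are RefSeq windows matched by symbol. The interaction of prefix and genotype could not be tested, since it takes the last degree of freedom.

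Members and lists were chosen with earlier results of these data known. Genes named are up to 15 rises and 15 falls with the largest change among called genes of protein-coding, lincRNA or antisense type that did not overlap, had a mean log2 CPM of at least 1 and had no predicted name, up to 6 members of each list by p, all clock genes, Atf4 and Ucp1. Some genes are not reported here. H2-DMa, Kdr, Fkbp5, H2-Ob, H2-DMb2, Gemin4, Gm47204 and the genes of the last section were chosen after their values were seen. Alternatives were the genotype term left out, the replicate number as a block, other scaling, filters, thresholds and tests (DESeq2 1.42.0, limma 3.58.1), robust dispersion, gene sets left out, each library left out, and, chosen after seeing the data, an offset for GC content and length.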

Additional observations from a re-analysis of the deposited data

Results flagged for a closer look

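In 8 lists of at least 5 tested genes the median S2 minus S1 difference had opposite signs in the genotypes, each at least 0.1 in size. The difference between the genotypes was not tested. Genes of proliferation had a median of -0.42 in WT and 0.67 in KO, a KO minus WT gap of 1.09. For complement genes the medians were -0.27 and 0.79 (gap 1.06), for fibroblast and matrix genes -0.37 and 0.45 (0.82), for neutrophil and mast cell genes -0.42 and 0.12 (0.54), and for genes of lipid-laden macrophages -0.13 and 0.36 (0.48). Creatine and calcium cycling genes had -0.11 and 0.26 (0.36). Genes of respiration had the other order, with 0.11 in WT and -0.38 in KO for complexes II to V (gap -0.48) and 0.18 and -0.12 for the genes of mitochondrial DNA (gap -0.30).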

How the results depend on the processing

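The count of called genes, 491 with all 4 libraries and the genotype term, depended on that term. It was 1 with no genotype term and 0 with the replicate block, in which the title number takes the place of genotype, with 2417 and 1912 genes at an unadjusted p under 0.05. With each library left out in turn and prefix as the sole term it ranged from 0 to 1, with 1115 to 3653 genes at an unadjusted p under 0.05, and these fits compare prefixes of unequal genotype. The count was 287 with upper quartile scaling, 1446 with no filter, 998 at an adjusted p under 0.1 and 259 with a 2-fold minimum added. In the other 10 settings it was 351 to 696, including 616 with the offset for GC content and length, of which 454 were among the 491.

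Across genes, the KO minus WT difference within S1 had a correlation of 0.60 with that within S2. Taken by title number the value was -0.60, the same number with its sign turned by construction. The check therefore cannot show whether same-numbered libraries belong together. Title number pairs S1 KO with S2 WT and S1 WT with S2 KO, which is the interaction of prefix and genotype that could not be tested. Of 94 printed genes that were called, 76 to 94 kept the call in the alternatives with 4 libraries and the genotype term. With 1 library left out each time, 8 printed genes reversed direction in fits whose prefixes are of unequal genotype, so that a gene differing by genotype moves through that alone. Without S2 WT these were Fos (range over the libraries left out -0.23 to 4.77), Fosb (-0.73 to 6.0), Jun (-0.18 to 2.22), Nr4a1 (-0.084 to 3.86) and Lep (-0.018 to 2.27). Without S1 WT they were Per1 (-0.77 to 0.15) and Atf4 (-1.99 to 0.11), and without S2 KO it was Fkbp5 (-0.99 to 1.38). Rora, at 0.08 in the fit reported, reversed with TPM and a pseudocount of 1 (-0.090) or 0.1 (-0.14) and with the GC content and length offset (-0.013). The cause was not tested. The clock arms, heat shock and MHC class II lists kept the sign of their medians in every setting run. Over the 12 alternatives that kept the 4 libraries, the genotype term and the threshold, the number called was 9 to 16 for heat shock genes (13 in the fit reported), 6 to 7 for MHC class II genes (7), 5 to 9 lower in the negative clock arm (6), 3 to 5 higher in the positive arm (4), 5 to 14 for immediate early genes (11), 1 to 14 for macrophage markers (7), 2 to 10 lower for endothelial markers (7), 0 to 12 for the citric acid cycle (3), 1 to 7 for fatty acid synthesis (3) and 0 to 5 lower for interferon-stimulated genes (1). With 2 libraries a prefix, small differences and genes under 1 CPM are the least certain.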

Other observations

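Gene families taken whole by symbol, and chosen after the calls were seen, held further called genes. Of 10 guanylate binding proteins tested, GTPases that act against pathogens inside cells, 4 were lower in S2 and 0 higher, and 8 had both S2 libraries below both S1 libraries. Gbp4 was at 29.1 and 38.3 CPM in S1 WT and S1 KO and at 13 and 22 in S2 WT and S2 KO (log2 fold change by edgeR -0.98, SE 0.16, adjusted p = 0.0113). Gbp7 was at 18.6 and 19.2 CPM in S1 and at 10.2 and 9.94 in S2 (-0.90, SE 0.15). Of 15 ephrins and ephrin receptors 3 were lower and 0 higher, with a median of -0.18. In this family 5 had both S2 libraries below both S1 libraries and 3 had both above. Over all genes tested these shares were 25.9% below and 27.3% above. Efnb2, an ephrin of arterial endothelium, was at 29.2 and 44.1 CPM in S1 and at 14 and 15.3 in S2 (-1.30, SE 0.17). Of single genes of endothelium, Aplnr, the apelin receptor (-1.18, SE 0.17), and Unc5b, a netrin receptor (-1.11, SE 0.17), were lower, while Apold1 (1.2, SE 0.16), Bcl6b (1.26, SE 0.19), the water channel Aqp1 (0.93, SE 0.19) and the flow-responsive factor Klf2 (0.71, SE 0.16) were higher.

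Of 22 dual specificity phosphatases, a family with members that switch off MAP kinases, 3 were higher and 0 lower (Dusp8, Dusp10 and Dusp16). The family median was -0.02. In this family 5 had both S2 libraries above both S1 libraries and 5 had both below. Slc6a6, the importer of the osmolyte taurine, was at 256 and 341 CPM in S1 WT and S1 KO and at 99.3 and 177 in S2 WT and S2 KO (-1.15, SE 0.18), the opposite direction to the inositol importer Slc5a3 (2.08). The secreted macrophage proteins Retnla and Chil3 also parted. Retnla was at 3.21 and 2.31 CPM in S1 and at 7.04 and 5.28 in S2 (1.16, SE 0.24), and Chil3 at 1.99 and 1.17 in S1 and at 0.223 and 0.171 in S2 (-2.96, SE 0.48).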
